A study of Mus musculus with 24 samples.

Results

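Cyclins are the regulatory subunits that switch on the cyclin-dependent kinases (CDKs) in each phase of the cell cycle. The genes described here are the D, E, A and B type cyclins that act in the cycle itself, *Ccnd1*, *Ccnd2*, *Ccnd3*, *Ccne1*, *Ccne2*, *Ccna2*, *Ccnb1* and *Ccnb2*. They were picked by gene symbol, 8 of the 54658 genes in the deposited table, and not by their values. Each symbol had 1 row, and all 8 passed the filter on low values (a mean normalized read count of at least 10) in every comparison.

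D type cyclins bind CDK4 and CDK6 and start the phosphorylation of the retinoblastoma protein RB, and E type cyclins bind CDK2 at the start of DNA replication. Cyclin A2 acts through S phase and G2 with CDK2 and CDK1, and the B type cyclins bring CDK1 into mitosis and are destroyed at anaphase by the ubiquitin ligase APC/C. In the embryonic cortex the dividing cells are the apical progenitors (radial glia) at the ventricle and the intermediate progenitors above them, and both D1 and D2 cyclins are expressed there.

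The 24 libraries came from *Cep135*(Δ8/Δ8) mutant and *Cep135*(+/+) control embryos, on a C57BL/6J background. *Cep135* encodes a centriole protein, and the allele is a small deletion made by CRISPR/Cas9 in the germ line, so every cell of the embryo carries it. Cortex was taken at E11.5 from mutants A, B and C and controls D, E and F, and at E14.5 from mutants 1, 2 and 6 and controls 3, 4 and 5. Cells from E14.5 cortices under the same 6 sample names, taken here as the same embryos, were also cultured as neurospheres with EGF and FGF2 for 12 and 24 hours, which gives 8 groups of 3 libraries. The labels of the cortex of mutant 6 name both ages, and it was used as E14.5 after its title. The sample names begin with 1 prefix for all E14.5 embryos and with 2 others in the titles of the E11.5 embryos (mutant A and control D, and mutants B and C with controls E and F). What a prefix stands for is not given in the sources used here, and it cannot be told apart from age. The descriptions of mutants B and C give a different prefix from their titles, so whether they share one with controls E and F is in doubt.

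Values are normalized read counts, that is reads of a gene divided by 1 size factor per library. The libraries were made from the 3′ end of polyadenylated RNA, with 4732781 to 11645213 reads on genes, and a fold change compares a gene with itself, not with another gene. *Cep135* itself was read at 170.6 to 375.5 in all 24 libraries and its mutant and control ranges overlapped in each of the 4 conditions, so its 3′ reads, which lie outside the deletion, do not check the labels. Sex read from the transcripts was the same in all libraries of an embryo. The 3 E14.5 controls were all male, mutants 1 and 2 were female and mutant 6 was male, so genotype and sex partly coincide there. RNA of whole tissue or culture was measured, so fewer cells of a type and less RNA per cell cannot be told apart.

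**Figure D1:**
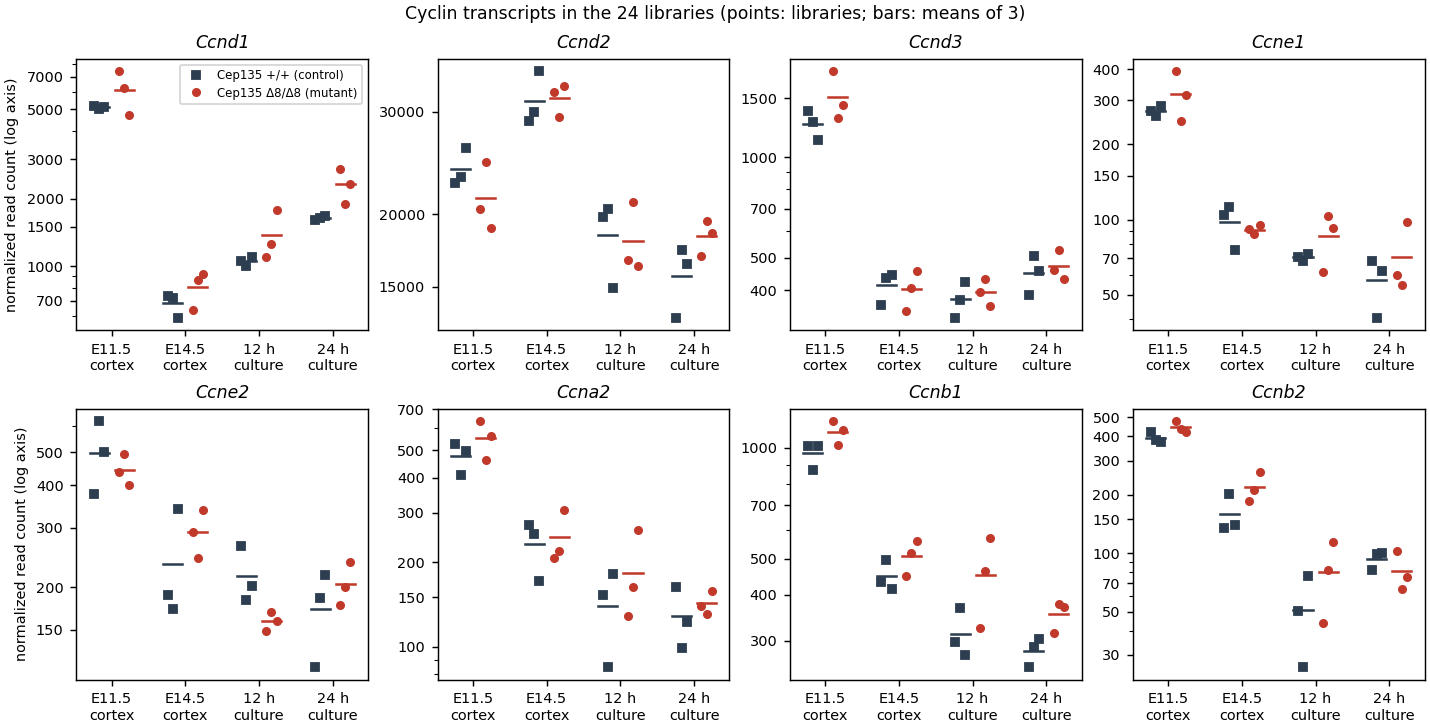
Normalized read counts of the 8 cyclins on log axes, 1 panel per gene, with mutant (circles) and control (squares) libraries in the 4 conditions and a bar at each mean of 3. Every gene except *Ccnd2* was highest in the E11.5 cortices, and the E11.5 and E14.5 points of each gene do not overlap.

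The first question was how the cyclins changed as the cortex matured. Between E11.5 and E14.5 all 8 cyclins changed, 7 of them to lower levels and *Ccnd2* to a higher one, with the largest change in *Ccnd1*. The test was limma on log2(normalized read count + 1) with a term for genotype, with Benjamini-Hochberg adjustment over all genes tested and a threshold of 0.05. Of the 13650 genes tested, 53.1% were called (29.3% lower and 23.8% higher at E14.5), so that a call alone is common here, and 58.2% had an unadjusted p under 0.05. The groups did not overlap in any of the 8 cyclins, against 30.5% of all genes, and 44.4% of all genes had an estimate above 0. The median log2 fold change of the 8 was -1.15, beside -0.08 over all genes tested.

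Among the D type cyclins, *Ccnd1* (chromosome 7, 144929931 to 144939925, minus strand, GRCm38) ranged from 4699 to 7377 in the 6 E11.5 cortices, with a median of 5146, and from 587.6 to 923.96 at E14.5, with a median of 730.7. Its lowest E11.5 library stood far above its highest E14.5 library. The log2 fold change was -2.91 (SE 0.11, adjusted p = 1.79e-11), a level 7.50-fold lower, and *Ccnd1* ranked 22 by p among all genes tested. The exact permutation test within genotype gave p = 0.005, the smallest it can give, for *Ccnd1* and for each of the other 7 cyclins.

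*Ccnd2* (chromosome 6, 127125162 to 127152193, minus strand) went the other way. It ranged from 18959 to 26047 at E11.5 (median 22868) and from 28918 to 35233 at E14.5 (median 31197). All E14.5 cortices were above all E11.5 cortices, by a margin that was narrow beside the change in *Ccnd1*. The log2 fold change was 0.48 (SE 0.10, adjusted p = 0.000703). The log2 ratio of *Ccnd1* to *Ccnd2* in the same library therefore moved from a median of -2.07 (range -2.34 to -1.47) to a median of -5.33 (range -5.90 to -5.09), a description for which only the change between conditions has a meaning, since the 2 genes' 3′ ends need not be read with the same efficiency.

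*Ccnd3* (chromosome 17, 47505051 to 47599691, plus strand) ranged from 1126 to 1805 at E11.5 and from 345.5 to 455.7 at E14.5. It fell by 1.76 on the log2 scale (SE 0.11, adjusted p = 2.18e-09), to a level 3.38-fold lower, the next largest change of the 8 after *Ccnd1*.

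The E type cyclins fell by unequal amounts. *Ccne1* (chromosome 7, 38097984 to 38107534, minus strand) ranged from 247.6 to 391.6 at E11.5 and from 75.8 to 111.8 at E14.5, a log2 fold change of -1.63 (SE 0.13, adjusted p = 3.48e-08). *Ccne2* (chromosome 4, 11191351 to 11204779, plus strand) ranged from 376.9 to 618.8 and from 172.0 to 340.9, and its log2 fold change was -0.87 (SE 0.17, adjusted p = 0.00049). The ranges of *Ccne2* came closest to touching, at 376.9 in control D at E11.5 and 340.9 in control 5 at E14.5.

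The cyclins of S phase, G2 and mitosis fell by almost the same amount. *Ccna2* (chromosome 3, 36564865 to 36572150, minus strand) had medians of 510.1 at E11.5 and 235.8 at E14.5 and a log2 fold change of -1.12 (SE 0.13, adjusted p = 3.79e-06). *Ccnb1* (chromosome 13, 100778650 to 100786570, minus strand) had medians of 1018 and 472.6 and a log2 fold change of -1.11 (SE 0.08, adjusted p = 2.18e-08). *Ccnb2* (chromosome 9, 70407692 to 70421547, minus strand) had medians of 419.1 and 193.5 and a log2 fold change of -1.17 (SE 0.12, adjusted p = 6.05e-07). These 3 estimates lay within 1 SE of each other, and no test of their difference was made. The log2 ratio of *Ccnb1* to *Ccnb2* kept to a narrow band in the cortices, 1.19 to 1.44 at E11.5 and 1.10 to 1.67 at E14.5.

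**Figure D2:**
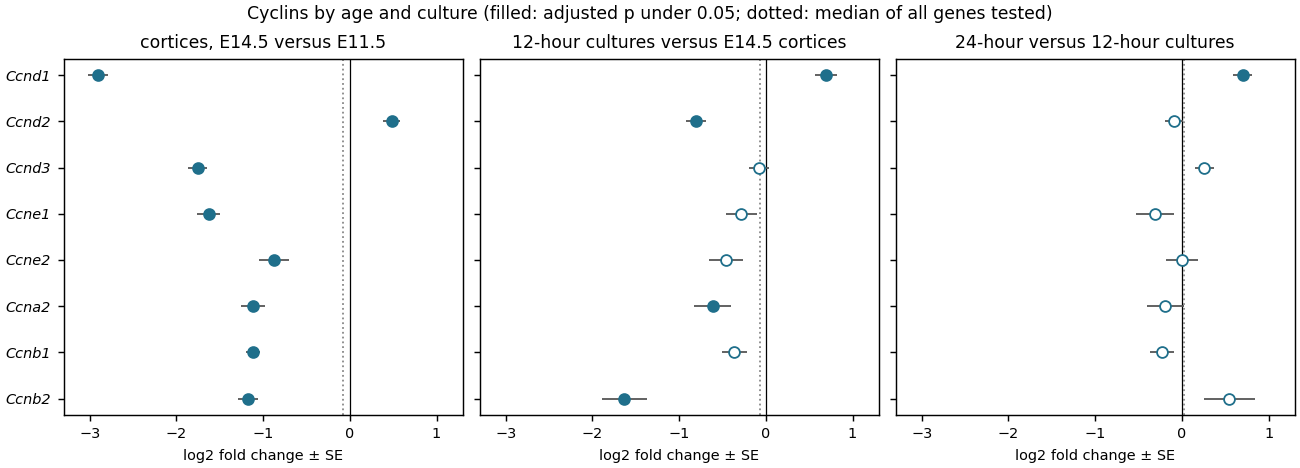
Log2 fold changes of the 8 cyclins with standard errors for age, the first 12 hours of culture and the next 12 hours, filled where the adjusted p is under 0.05, with a dotted line at the median of all genes tested. With age 7 cyclins lie left of 0 and *Ccnd2* right of it, and *Ccnd1* reverses to the right in both culture panels.

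Whether promoter sequence has a part in the levels of *Ccnb1* and *Ccnb2* was not tested. The sequences just before the RefSeq start of the B type cyclin genes are shown as a description. They are RefSeq sequences on GRCm38.p6, from 150 bases before the annotated start to 10 bases after it, 5′ to 3′ on the gene's strand, with capitals for a CCAAT box (CCAAT, bound by NF-Y) or a cell cycle genes homology region (CHR, bound by the DREAM and MMB complexes, as TTTGAA or TTTAAA), searched on both strands. *Ccnb1* lies at chr13:100786477-100786636 and *Ccnb2* at chr9:70421545-70421704. Here and below the start is that of RefSeq, which differs from the GENCODE positions given above. By GENCODE *Ccnb1* starts at 100786570, inside this window, so its TTTAAA and its nearer CCAAT box lie within the gene.
Ccnb1: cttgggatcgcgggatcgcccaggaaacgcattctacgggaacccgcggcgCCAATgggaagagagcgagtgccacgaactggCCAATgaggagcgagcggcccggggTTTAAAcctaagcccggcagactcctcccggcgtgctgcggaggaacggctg
Ccnb2: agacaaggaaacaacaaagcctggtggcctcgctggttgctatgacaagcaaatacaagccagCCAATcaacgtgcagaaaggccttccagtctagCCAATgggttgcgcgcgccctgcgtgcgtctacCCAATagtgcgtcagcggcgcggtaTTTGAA

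*Ccnb1* held 2 CCAAT boxes, starting 99 and 67 bases before the start, and TTTAAA at 42 bases before it. *Ccnb2* held 3 CCAAT boxes, starting 87, 54 and 21 bases before the start, and TTTGAA from base 5 after the start, with another TTTGAA 167 bases before the start, outside the stretch shown. In all 32817 promoter windows of 300 bases, 11.7% held at least 2 CCAAT boxes and 3.37% at least 3, 17.9% held TTTGAA and 13.2% held TTTAAA, so that each match is a description and not a binding site. *Ccne1* held TTTAAA 15 bases before its RefSeq start, which is inside the gene by GENCODE. Of the 2 *Ccnd3* windows 1 held a CCAAT box. None of these 5 windows held the E2F letters TTTCGCGC, TTTGGCGC or TTTCCCGC, which 1.84% of all windows hold. *Ccna2*, *Ccnd1*, *Ccnd2* and *Ccne2* were not matched.

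The partners of the cyclins were read from lists chosen by function. Of the 4 kinases that the cyclins bind, *Cdk2* (log2 fold change -1.28, SE 0.18, adjusted p = 1.96e-05), *Cdk1* (-0.91, SE 0.15, adjusted p = 7.82e-05) and *Cdk4* (-0.46, SE 0.13, adjusted p = 0.00609) fell, and *Cdk6*, the other partner of the D type cyclins, rose (0.41, SE 0.13, adjusted p = 0.0147). Of 9 genes that activate, inhibit or complete cyclin-CDK complexes, 8 fell and none rose, with a median log2 fold change of -0.85. They included *Plk1*, a mitotic kinase that promotes CDK1 activation (-1.23, SE 0.11), the phosphatase *Cdc25a* that removes inhibitory phosphates from CDKs (-0.91, SE 0.07), *Wee1* that adds them (-0.79, SE 0.10), and *Cks2*, a small CDK-binding subunit (-1.21, SE 0.19).

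Of 8 genes for the destruction of cyclins, 4 fell and none rose. *Cdc20*, which leads the APC/C to the B type cyclins, fell by 1.09 (SE 0.11), the APC/C inhibitor *Fbxo5* fell by 1.02 (SE 0.11), the APC/C-linked enzyme *Ube2c* fell by 1.01 (SE 0.13), and the ubiquitin ligase subunit *Skp2* fell by 1.03 (SE 0.09), all on the log2 scale. Of 11 RB and E2F genes, 9 fell and 2 rose, among them *E2f7* (-1.23, SE 0.11) and *E2f3* (-0.84, SE 0.08) and, upward, the RB relative *Rbl2* (0.82, SE 0.10). Of 6 DREAM and MMB-FOXM1 genes 3 fell and none rose, led by *Mybl2* (-1.24, SE 0.12) and *Foxm1* (-1.07, SE 0.11), the activators of late cell cycle genes. Of 16 other cyclins 14 were tested, 6 fell and 1 rose, with *Ccnf* at -1.09 (SE 0.10) and the rise in *Ccni* (0.41, SE 0.08).

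The marker lists moved too. All 7 proliferation markers fell, with a median log2 fold change of -1.07, *Pcna* by 1.75 (SE 0.15) and *Mcm2* by 1.29 (SE 0.14). Of 8 apical progenitor markers 6 fell and 2 rose (median -0.68), 3 of 4 intermediate progenitor markers rose (median 0.50), and all 7 markers of postmitotic neurons rose (median 1.70), with a summed level of 8629 to 12985 at E11.5 and 27827 to 38283 at E14.5. The part of these shifts in cell type in the cyclin values was not tested.

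The second question was what happened when the E14.5 cells were placed in culture. After 12 hours 4 of the 8 cyclins had changed, *Ccnd1* to a higher level and *Ccnd2*, *Ccnb2* and *Ccna2* to lower ones. Of 13601 genes tested 30.2% were called (14.1% higher and 16.1% lower), so 4 of 8 stands near the share of all genes. Cultures and cortices did not overlap in 14.4% of all genes (6.66% higher and 7.76% lower in culture). Among the 8 cyclins 1 was higher and 2 were lower without overlap. The median log2 fold change of the 8 was -0.41, beside -0.06 over all genes. The libraries of the 2 conditions came from the same embryos, and the plot of each embryo's own change shows how far the embryos agreed.

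*Ccnd1* ranged from 1004 to 1785 in the 6 cultures (median 1099), above all 6 cortices of the same embryos. It was higher in 6 of 6 embryos, with a log2 fold change of 0.69 (SE 0.13, adjusted p = 0.000759). *Ccnd2* ranged from 14945 to 20960 (median 18233), below all 6 cortices, and was lower in 6 of 6 embryos, with a log2 fold change of -0.80 (SE 0.11, adjusted p = 7.56e-05). The exact sign-flip permutation test over the 6 pairs gave 0.0312, the smallest it can give, for *Ccnd1*, *Ccnd2* and *Ccnb2*. The 2 D type cyclins thus moved in directions opposite to those between E11.5 and E14.5, and the log2 ratio of *Ccnd1* to *Ccnd2* stood at a median of -3.99 (range -4.34 to -3.19).

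*Ccnb2* fell most. The cortices of mutants 1, 2 and 6 held 185.2, 212.0 and 261.5 normalized reads of it and their cultures 43.9, 82.1 and 114.7. For controls 3, 4 and 5 the cortices held 135.3, 201.8 and 140.4 and the cultures 50.3, 25.8 and 76.7. Every culture was below every cortex. The log2 fold change was -1.63 (SE 0.26, adjusted p = 0.000274), a level 3.10-fold lower, and the change in single embryos ran from -2.92 in control 4 to -0.86 in control 5. Control 4 had the lowest *Ccnb2* value of the 24 libraries. Its pseudogene *Ccnb2-ps* held at most 11.8 normalized reads in any library, and *Ccnb1-ps* and *Ccnd3-ps* at most 1.01.

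*Ccna2* ranged from 84.5 to 259.8 in culture, overlapping the 171.7 to 307.7 of the cortices, and was lower in 5 of 6 embryos. Its log2 fold change was -0.61 (SE 0.22, adjusted p = 0.0419, exact sign-flip permutation p = 0.0625). The call was lost when the 12-hour library of mutant 1, mutant 2, control 3 or control 4, or the cortex of mutant 2, mutant 6, control 3 or control 4, was left out (adjusted p between 0.0527 and 0.0992 by limma), and with a term for the share of *Gm42418* (adjusted p = 0.363), a gene with ribosomal RNA sequence that took 9.78% to 15.0% of the normalized reads in these cortices and 10.7% to 34.8% in the 12-hour cultures.

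*Ccnb1* did not pass the threshold, with a log2 fold change of -0.36 (SE 0.14, adjusted p = 0.0614), and with the embryo as a block it did (limma, adjusted p = 0.0358), so that 5 cyclins were called in that fit. *Ccne2* had a log2 fold change of -0.46 (SE 0.19, adjusted p = 0.0843), *Ccne1* one of -0.28 (SE 0.18, adjusted p = 0.255) and *Ccnd3* one of -0.08 (SE 0.11, adjusted p = 0.622). The log2 ratio of *Ccnb1* to *Ccnb2*, which had kept to a narrow band in the cortices, was 1.83 to 3.78 in the 12-hour cultures. That was above all 12 cortices, and the highest ratio was that of control 4, where *Ccnb2* stood at 25.8. At 24 hours the ratio was 1.53 to 1.62 in the controls, within the range of the cortices, and 1.60 to 2.51 in the mutants.

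**Figure D3:**
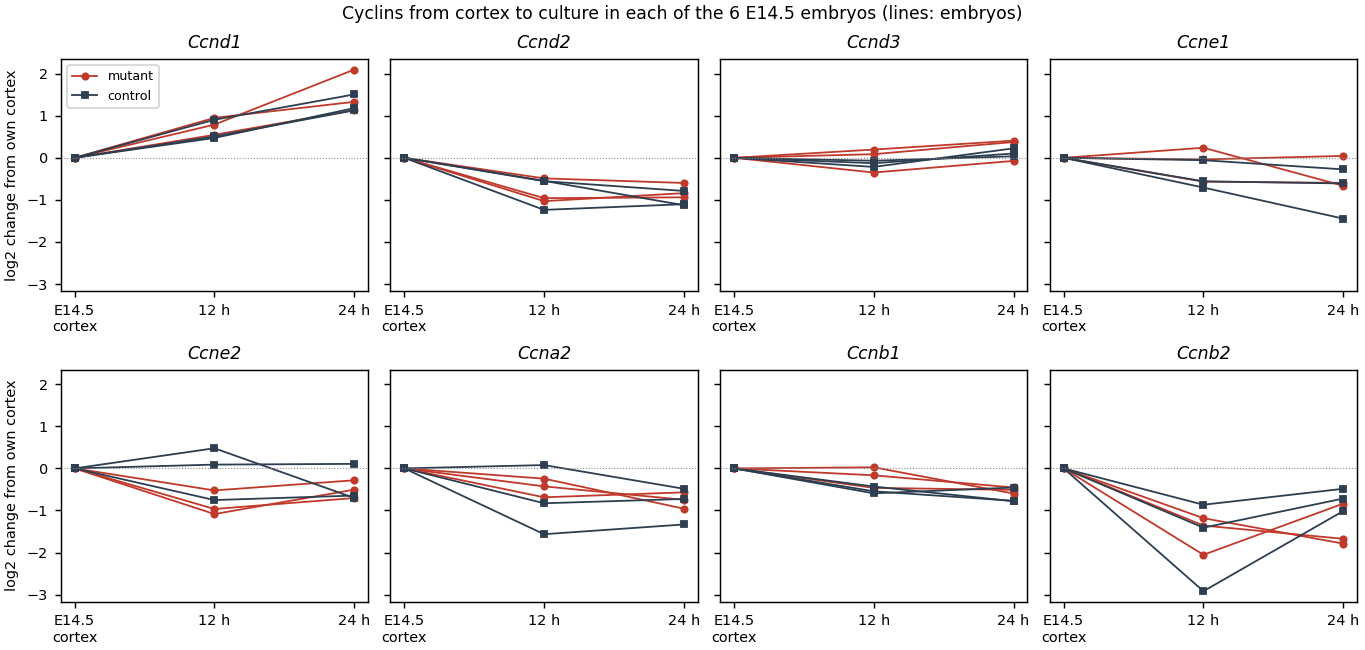
Log2 change of each cyclin from the cortex of the same embryo after 12 and 24 hours of culture, with 1 line per embryo for 3 mutants (circles) and 3 controls (squares). All 6 lines of *Ccnd1* rise at both steps, all 6 lines of *Ccnd2* and *Ccnb2* lie below 0, and the lines of *Ccnb2* spread widest at 12 hours.

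Of the pathway lists, no kinase that binds the 8 cyclins passed the threshold (0 of 4, with *Cdk4* nearest at -0.19, SE 0.13). Of the 9 genes acting on cyclin-CDK complexes 4 fell, among them *Cks2* (-0.75, SE 0.21) and *Cks1b* (-0.64, SE 0.19), and 2 rose, *Cdc25a* (0.36, SE 0.09) and *Cdk7* (0.59, SE 0.17), a kinase that activates CDKs. Of the 8 destruction genes 3 fell and none rose, led by *Cdc20* (-1.08, SE 0.15, adjusted p = 6.63e-05). *E2f1* rose (0.72, SE 0.14) as the 1 gene called of 11 in its list, and *Lin9* rose (0.39, SE 0.13) as the 1 of 6 in the DREAM and MMB-FOXM1 list. Of the 14 other cyclins tested 4 rose and 1 fell, led by the p53 target *Ccng1* (0.85, SE 0.12, adjusted p = 7.25e-05), which is not known as a driver of the cycle.

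Proliferation markers fell in 5 of 7 cases (median -0.51), with *Mcm2* at -0.75 (SE 0.16) and *Top2a* at -0.49 (SE 0.12). The lists of cells outside the neural lineage did not move together. The summed level of 7 microglia genes was 405.9 to 948.4 in the cortices and 6.31 to 42.5 in the 12-hour cultures, that of 5 endothelial genes was 720.8 to 844.8 and 20.5 to 84.2, and that of 5 genes of meninges and fibroblasts 1434 to 2442 and 117.9 to 256.2. The summed level of 8 erythroid genes was higher in culture, at 48214 to 97081 against 25594 to 32582 in the cortices, without overlap, and that of 9 liver genes overlapped, at 23.6 to 1366 against 58.7 to 1032. Of 8 apical progenitor markers 6 fell and 1 rose, and of 4 intermediate progenitor markers 2 fell and none rose. The part of these shifts in the cyclin values was not tested.

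Between 12 and 24 hours 1 of the 8 cyclins changed, *Ccnd1*, where 0.292% of 13359 genes were called (0.15% higher). Mutants 1, 2 and 6 went from 1099, 1260 and 1785 normalized reads to 2719, 1889 and 2324. Controls 3, 4 and 5 went from 1049, 1004 and 1100 to 1613, 1641 and 1670. The level was higher at 24 hours in 6 of 6 embryos, while the 2 ranges overlapped only through mutant 6 at 12 hours. The log2 fold change was 0.70 (SE 0.11, adjusted p = 0.00596; exact sign-flip permutation p = 0.0312, the smallest possible), and with the embryo as a block 104 genes were called in place of 39, *Ccnd1* among them. Over both steps *Ccnd1* stayed below the E11.5 cortices, whose lowest value was 4699.

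*Ccnd3* was also higher at 24 hours in 6 of 6 embryos, by 0.26 on the log2 scale (SE 0.11), and did not pass the adjustment (adjusted p = 0.468). *Ccnb2* had a log2 fold change of 0.55 (SE 0.29, adjusted p = 0.575), with changes from -0.60 in mutant 6 to 1.90 in control 4. The other estimates were -0.31 for *Ccne1* (SE 0.22), -0.23 for *Ccnb1* (SE 0.14), -0.19 for *Ccna2* (SE 0.21), -0.10 for *Ccnd2* (SE 0.10) and 0.00 for *Ccne2* (SE 0.18). In the pathway lists *Top2a*, a proliferation marker, fell by 0.75 (SE 0.11, adjusted p = 0.00453), and *Foxm1* stood just outside the threshold (-0.71, SE 0.15, adjusted p = 0.0506). Among the cell type markers *Neurog2*, a gene of intermediate progenitors, fell by 0.77 (SE 0.15, adjusted p = 0.034), and 3 of 8 erythroid genes fell, *Hbb-bt* by 1.32 (SE 0.15, adjusted p = 0.000352), *Hbb-y* by 0.9986 (SE 0.19, adjusted p = 0.034) and *Hbb-bs* by 0.78 (SE 0.16, adjusted p = 0.0423). The erythroid sum was 48214 to 97081 at 12 hours and 32376 to 55582 at 24 hours, and its part in the rise of *Ccnd1* was not tested.

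Over the 4 conditions the order of the levels was thus not the same in all cyclins. *Ccnd1* was highest at E11.5, then at 24 hours, at 12 hours and in the E14.5 cortex, and of these neighbours the 24-hour and 12-hour cultures overlapped. *Ccnd2* was highest in the E14.5 cortex, and its 3 lower conditions each overlapped their neighbour. *Ccne1*, *Ccna2* and *Ccnb1* shared 1 order, with the E11.5 cortex first, then the E14.5 cortex, the 12-hour and the 24-hour cultures, in which E11.5 alone stood clear of its neighbour. *Ccne2* had the 2 cultures in the other order, at means of 189.1 (24 hours) and 187.6 (12 hours), and also stood clear at E11.5 alone. *Ccnd3* ran E11.5, 24 hours, E14.5 and 12 hours, with the last 3 overlapping each other in turn. *Ccnb2* had 2 clear steps, from E11.5 to E14.5 and from there to the 24-hour cultures, which overlapped the 12-hour ones. From the lowest to the highest library *Ccnb2* spanned 18.6-fold, *Ccnd1* 12.6-fold and *Ccnd2* 2.66-fold.

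**Figure D4:**
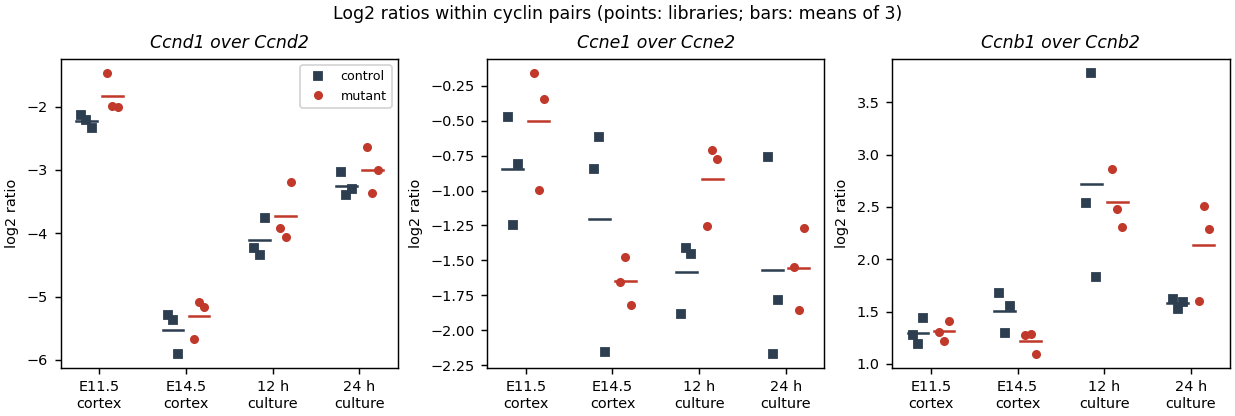
Log2 ratios within 3 pairs of cyclins of the same type in each library, mutant (circles) and control (squares), with a bar at each mean of 3. The ratio of *Ccnd1* to *Ccnd2* has its lowest values at E14.5, and that of *Ccnb1* to *Ccnb2* its highest at 12 hours of culture.

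The third question was whether loss of CEP135 changed the cyclins. In none of the 4 conditions, nor over the 12 cortices with age as a term, did any of the 8 cyclins pass the threshold in limma. The background was low, with 0.0149% of 13406 genes called at E11.5, 0.0736% of 13583 at E14.5 (0.0442% higher and 0.0294% lower), 0% of 13389 in the 12-hour cultures, 0.271% of 13300 in the 24-hour cultures and 0.139% of 13650 over the 12 cortices (0.044% lower). In the same order, 0, 1, 0, 1 and 2 cyclins had an unadjusted p under 0.05, where the share of all genes was 7.39%, 9.1%, 4.85%, 10.6% and 8.71%. At 12 hours, where limma called none, 650 genes had an unadjusted p under 0.05, edgeR called 0 and DESeq2 9, no cyclin among them. The smallest p an exact permutation test of 3 against 3 allows is 0.1.

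The estimates leaned upward. In the mutants 6 of 8 cyclins had an estimate above 0 in the cortices of either age and after 12 hours, and 7 of 8 after 24 hours and over the 12 cortices. Among all genes the share was 52.9% at E11.5, 51.7% at E14.5, 47.8% and 48.3% in the 12-hour and 24-hour cultures and 52.5% over the 12 cortices. The medians of the 8 in the 4 conditions were 0.20, 0.13, 0.30 and 0.26, beside medians of all genes between -0.02 and 0.02. The cyclins of 1 library share its cells and are not independent of each other, and the 3 later comparisons use the same 6 sample names. The lean was not particular to the cyclins. At 24 hours the summed kinases (2115 to 2425 in mutants, 1617 to 1796 in controls) and RB and E2F genes (1656 to 1873, 1464 to 1580) did not overlap. At E14.5 the RB and E2F genes (1995 to 2157, 1681 to 1805) and proliferation markers (11375 to 13849, 8444 to 10754) did not either. The kinases overlapped at E14.5, and the destruction genes and other cyclins at 24 hours.

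In 3 conditions some cyclins had mutant and control libraries that did not overlap: 1 at E11.5 (higher in mutants, as in 7.16% of all genes, with 6.11% lower), 0 at E14.5 (7.02% higher and 6.71% lower among all genes), 1 in the 12-hour cultures (lower, as in 5.94% of all genes, with 5.09% higher) and 2 in the 24-hour cultures (higher, as in 7.15%). Over the 12 cortices, with both ages pooled, no cyclin did, against 1.33% of all genes (0.813% higher). Every cyclin differed between the ages without overlap, so the pooled genotypes had to overlap and this count says nothing on genotype.

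The precision was highest over the 12 cortices, where the 8 estimates with 2 SE either side ran from -0.28 to 0.57 on the log2 scale, and lowest at 12 hours, where they ran from -0.92 to 1.64. A change of the size seen with age in *Ccnd1*, *Ccnd3* or *Ccne1* lay outside these bounds in the cortices.

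**Figure D5:**
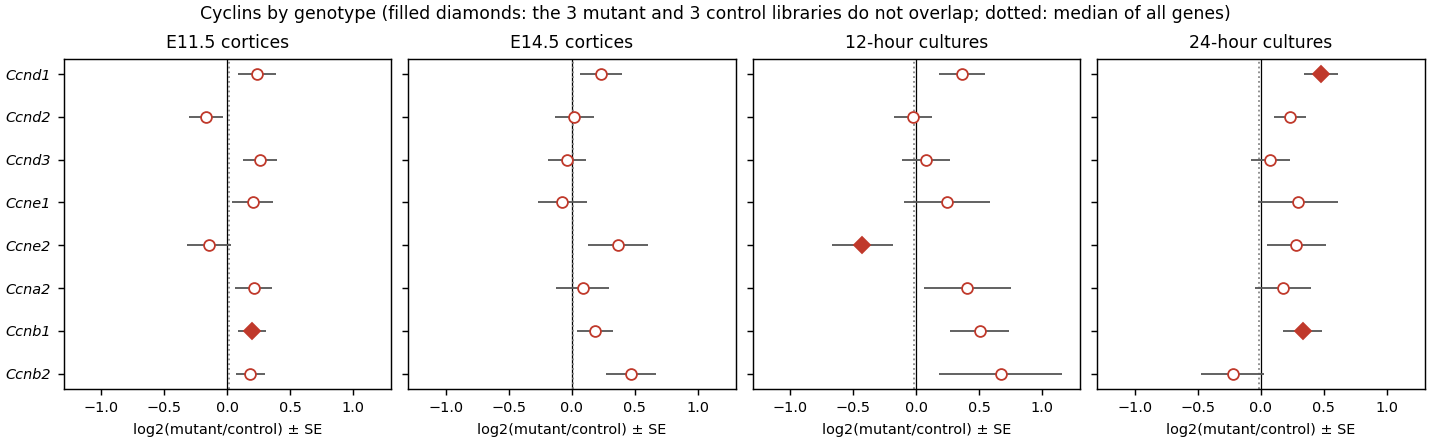
Log2 ratios of mutant to control for the 8 cyclins in each condition with standard errors, as filled diamonds where the 3 mutant and 3 control libraries do not overlap, with a dotted line at the median of all genes tested. The 4 diamonds are *Ccnb1* at E11.5 and 24 hours, *Ccne2* at 12 hours and *Ccnd1* at 24 hours, and none has an adjusted p under 0.05.

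*Ccnd1* had the smallest p, at 24 hours. The 3 mutants (1889 to 2719) were all above the 3 controls (1613 to 1670), with a log2 fold change of 0.48 (SE 0.13, unadjusted p = 0.00309, adjusted p = 0.172; exact permutation p = 0.1, the smallest possible). The libraries of the 2 genotypes did not overlap in 16.2% of all genes tested. DESeq2 on whole reads called it (adjusted p = 0.042), along with 182 genes in all in place of 36, edgeR did not (adjusted p = 0.162), and over all alternatives the adjusted p ran from 0.042 to 0.939. The same 24-hour libraries also differed in reads on genes, 7903426 to 11645213 in mutants and 4732781 to 5709443 in controls, in the share of *Gm42418*, 20.5% to 23.0% and 6.26% to 13.9%, and in the summed level of 9 liver genes, 113.9 to 374.5 and 11.3 to 26.96. Further marker sums did not overlap in them either, with mutants above controls: 4 choroid plexus genes (4871 to 16476 against 771.4 to 3539), 8 apical progenitor genes (12079 to 13278 against 9389 to 10593), 4 intermediate progenitor genes (1569 to 1803 against 1299.9 to 1544) and 5 genes of meninges and fibroblasts (223.7 to 289.8 against 146.1 to 182.0). The sum of 7 proliferation markers was 5330 to 6244 against 4077 to 5116. With the *Gm42418* term the estimate was 0.43 (adjusted p = 0.939 by limma), and the part of depth and of these cell type markers was not tested.

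In the other conditions *Ccnd1* was higher in the mutants by 0.23 at E11.5 (SE 0.15), 0.23 at E14.5 (SE 0.16) and 0.36 at 12 hours (SE 0.18), each with overlapping groups. The spread was larger among mutants than among controls in each condition, with SDs of 1343 against 89.8 in the E11.5 cortices, 151.8 against 82.9 in the E14.5 cortices, 359.0 against 48.1 after 12 hours and 415.5 against 28.8 after 24 hours. This difference in spread was not tested.

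The B type cyclins had the next smallest p values. Over the 12 cortices *Ccnb2* had a log2 fold change of 0.33 (SE 0.12, adjusted p = 0.443; exact permutation p within age = 0.025) and *Ccnb1* one of 0.19 (SE 0.08, adjusted p = 0.53; exact permutation p = 0.03). At E11.5 mutants A, B and C held 1183, 1021 and 1116 normalized reads of *Ccnb1*, and controls D, E and F held 1015, 873.1 and 1013. These do not overlap, as in 13.3% of all genes, and mutant B lay only just above control D. After 12 hours its estimate was 0.50 (SE 0.23, adjusted p = 0.913), with control 4 at 367.5 above mutant 1 at 325.6. After 24 hours mutants 1, 2 and 6 held 315.3, 378.5 and 370.2, and controls 3, 4 and 5 held 254.0, 288.2 and 302.5, again without overlap (log2 fold change 0.33, SE 0.16, adjusted p = 0.481). *Ccnb2* had its largest cortical difference at E14.5 (0.47, SE 0.20, adjusted p = 0.519), where control 4 at 201.8 lay above mutant 1 at 185.2, and at 24 hours its estimate was below 0 (-0.22, SE 0.25).

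*Ccne2* was the only cyclin with all mutants below all controls in any condition. In the 12-hour cultures mutants 1, 2 and 6 held 148.2, 169.4 and 158.5 normalized reads of it, and controls 3, 4 and 5 held 264.3, 183.2 and 201.9 (log2 fold change -0.43, SE 0.24, adjusted p = 0.913), where 11% of all genes did not overlap. At E14.5 the estimate was above 0 (0.37, SE 0.24). The difference between these 2 effects, tested as an interaction, was -0.80 on the log2 scale (SE 0.34, adjusted p = 0.793 by limma). That between the 24-hour and 12-hour effects was 0.71 (SE 0.34) and did not pass the adjustment either. In the interactions of genotype with age, culture and culture time, limma called 0 of 8 cyclins and 0% of all genes, with an unadjusted p under 0.05 in 7.84%, 5.32% and 2.38% of all genes. For the interaction with culture edgeR called 1 gene and DESeq2 5, for that with culture time both called 0, and no cyclin was called.

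The remaining cyclins gave small or wide estimates. *Ccnd2* lay between -0.17 and 0.23 on the log2 scale in the 4 conditions, *Ccnd3* between -0.04 and 0.26, *Ccne1* between -0.08 and 0.29, and *Ccna2* between 0.09 and 0.40, each with overlapping groups in every condition.

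Of the pathway lists, 1 gene passed the threshold for genotype. *Ccng1*, a cyclin relative induced by p53, was higher in the mutants over the 12 cortices (0.82, SE 0.11, adjusted p = 0.00461) and at 24 hours (1.06, SE 0.16, adjusted p = 0.015), and had estimates of 0.9997 at E11.5 (SE 0.17, adjusted p = 0.191), 0.64 at E14.5 (SE 0.15, adjusted p = 0.282) and 0.52 at 12 hours (SE 0.21, adjusted p = 0.913). Among the kinases, *Cdk6* had the smallest p at E11.5 (0.57, SE 0.13, adjusted p = 0.38) and at 24 hours (0.59, SE 0.15, adjusted p = 0.127). Among the destruction genes *Cdc20* stood at 0.40 at E11.5 (adjusted p = 0.566) and 0.83 at 12 hours (adjusted p = 0.913). The proliferation marker *Mcm5* stood at 0.54 at E14.5 (adjusted p = 0.324), where the 7 markers had a median of 0.37.

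Among the markers of cell types, *Neurod6*, a gene of postmitotic neurons, was lower in the mutants at E14.5 (-0.87, SE 0.13, adjusted p = 0.0481) and at 24 hours (-0.71, SE 0.13, adjusted p = 0.0425), and the microglia receptor *Cx3cr1* was higher at E14.5 (1.12, SE 0.16, adjusted p = 0.0269) and over the 12 cortices (0.92, SE 0.12, adjusted p = 0.00272). At 24 hours *Ttr* of the choroid plexus (2.35, SE 0.45, adjusted p = 0.0444) and the liver genes *Alb* (4.85, SE 0.82, adjusted p = 0.0284) and *Serpina1e* (5.66, SE 0.84, adjusted p = 0.0144) were higher in the mutants as well. The summed level of 7 neuron genes was 27827 to 28595 in the mutant and 35435 to 38283 in the control E14.5 cortices, and that of 7 microglia genes 756.4 to 948.4 and 405.9 to 471.6. Their part in the cyclin estimates was not tested.

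Last, the genes whose pattern over the 24 libraries was most like each cyclin were found, as those with the smallest root mean square difference between log2 profiles centred on their own means, among 13677 other genes. This is a description, in which the largest shifts of a gene between conditions weigh most. For *Ccne1* they were *Pcna* (0.24), *Mcm2* (0.29) and *Zfp36l1* (0.29), and for *Ccna2* they were *Mcm2* (0.24), *Tipin* (0.25) and *Cenpa* (0.25), most of them genes of DNA replication or the centromere. For *Ccne2* they were *Lig1* (0.24), *Mki67* (0.25) and *Pbx2* (0.25), and for *Ccnb1* *Grb10* (0.19), *Nectin3* (0.19) and *Dut* (0.20). *Ccnd3* was most like *Cdt1* (0.25), *Igf2bp3* (0.25) and *Igf2bp1* (0.26).

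*Ccnd1* was most like *Mest* (0.44), *Igf2bp1* (0.51) and *Ccnd3* (0.55), which is the only case of a cyclin among the 3 closest. *Ccnd2* was most like *Epha3*, *Pfdn5* and *Pdcd4* (0.20, 0.20 and 0.21) and its distance to *Ccnd1*, 1.27, was the largest between any 2 of the 8. *Ccnb2* was most like *Mob3b* (0.38), *Paox* (0.41) and *Grhpr* (0.41). Among its neighbours *Ccnb1* at a distance of 0.65 ranked only 194, while *Ccna2* ranked 37 (0.52). These distances are not scaled to a gene's own root mean square spread, which was 1.15 for *Ccnb2*, 1.11 for *Ccnd1* and 0.38 for *Ccnd2*. Distances of different cyclins therefore do not rank how close their matches are.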

How the data were processed

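RNA from 12 cortices and 12 cultures of 12 embryos was measured in 3′ libraries (QuantSeq). Per the labels and methods, the authors aligned reads to GRCm38 with TopHat2 2.0.10 (with Bowtie 1.0.0; SAMtools version 0.1.19), counted them by strand with HTSeq 0.6.1 on GENCODE genes, and deposited 1 table of signal, read counts divided by 1 size factor per library. All 484666 values above 0 in the 24 libraries were whole multiples of the smallest such value of their library, within 0.01 read. Whole reads were taken as recovered in 23 libraries. In control D at E11.5 1 read is worth 1.01, too near 1 to be told apart, so edgeR and DESeq2 were not run on comparisons with it.

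The main test was limma 3.58.1 (R 4.3.3) with an intensity trend on log2(value + 1), two-sided, on genes whose mean reached 10, with terms for genotype, age or condition as compared and Benjamini-Hochberg adjustment. A fold change is on that scale, which understates changes of low genes. Exact permutation tests were two-sided. Alternatives were a pseudocount of 0.1 or 5, another filter (none, or 50), 3 other scalings, an adjusted p under 0.1, terms for sex and the *Gm42418* share, the prefix of the sample title or the embryo as a block, leaving out each library, edgeR 4.0.16, DESeq2 1.42.0 and 1 fit of 24 libraries. The main limma fit was run on simulated counts for some of the comparisons. These counts were drawn independently for each library, with no effect shared by an embryo's libraries, and no result given here rests on them. Cortex and cultures that share a sample name in the labels were taken as 1 embryo, and their deviations from group means correlated at -0.11 to 0.24 over 18 pairs, 12 of them over 0.1.

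Named pathway genes are those past the threshold, at most 4 a list with the smallest p, or else the 1 or 2 with the smallest p. Positions came from GENCODE vM21, where no cyclin overlapped another gene on its strand, and promoters from RefSeq, which held 4 of the 8 cyclins. The members and lists were chosen with earlier results of these data known. Replicates carry different embryo numbers in the labels.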

Additional observations from a re-analysis of the deposited data

How the results depend on the processing

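With age all 8 cyclins kept their call under every alternative, and *Ccnd1* kept it in both culture comparisons. After 12 hours of culture 3 to 6 of 8 cyclins were called over the alternatives and 3 to 5 without 1 library. With the embryo as a replicate block 5 of 8 cyclins were called after 12 hours, 1 of 8 from 12 to 24 hours and 0 in the interactions, and it changed no other call of a cyclin than that of *Ccnb1*. *Ccna2* lost its call with no filter (adjusted p = 0.0581) and in edgeR (adjusted p = 0.0639). *Ccnb1* gained one under quantile normalization (0.027), the sex term (0.0367), the *Gm42418* term (0.0228) and 1 fit of 24 libraries (0.0153), and *Ccne2* in that last fit (0.0359), all adjusted p values. Leaving out the cortex of mutant 1 (0.0469) or the 12-hour library of mutant 6 (0.00974) also called *Ccnb1*, and leaving out the 12-hour library of control 3 (0.037) or the cortex of control 4 (0.0321) called *Ccne2*. A threshold of 0.1 called both. For genotype at 24 hours DESeq2 called 1 of 8 cyclins in place of 0. The cause was not tested for any of these.

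Estimates near 0 changed sign. With the *Gm42418* term the log2 fold change became 0.215 for *Ccne2* and -0.00904 for *Ccna2* between genotypes at E11.5, 0.0224 for *Ccnd3* at E14.5 and -0.0613 for *Ccnd3* after 24 hours, -0.0342 for *Ccne1* over the 12 cortices, 0.0455 for *Ccnd3* after 12 hours against cortex, and 0.0236 for *Ccnd2* from 12 to 24 hours. With the sex term *Ccnd3* became 0.148 (E14.5), -0.0639 (12 hours) and -0.0469 (24 hours) between genotypes. Quantile normalization gave *Ccnd2* 0.228 between genotypes at 12 hours and 0.000482 from 12 to 24 hours, and TMM and median-of-ratios scaling gave *Ccne2* -0.00516 and -0.00571 in the latter. Without 1 library the genotype estimates ran from -0.33 to 0.026 for *Ccne2* at E11.5, at E14.5 from -0.038 to 0.10 for *Ccnd2*, -0.13 to 0.065 for *Ccnd3*, -0.25 to 0.031 for *Ccne1* and -0.12 to 0.21 for *Ccna2*, at 12 hours from -0.17 to 0.054 for *Ccnd2* and -0.013 to 0.16 for *Ccnd3*, at 24 hours from -0.028 to 0.17 for *Ccnd3*, and over the 12 cortices from -0.025 to 0.13 for *Ccne1*, while *Ccne2* from 12 to 24 hours ran from -0.084 to 0.16.

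Over all genes, the number called for genotype ran over the alternatives from 0 to 17 at E11.5 (2 in the test reported), 1 to 64 at E14.5 (10), 0 to 182 at 12 hours (0), 0 to 182 at 24 hours (36) and 7 to 28 over the 12 cortices (19). After 12 hours of culture it ran from 2025 to 5310 (4107) and from 12 to 24 hours from 14 to 163 (39).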
